A study of Rattus norvegicus with 8 samples.

Results

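The genes described here encode the proteins of the cytosolic ribosome, measured in rat whole blood. They were chosen by name: a probe set was included where the platform annotation gave exactly 1 gene symbol, beginning with Rpl or Rps and a digit, or Rpsa, Rplp0, Rplp1 or Rplp2, with the S6 kinase symbols left out. This gave 57 probe sets for 50 genes, of 31042 probe sets tested and 14217 genes with 1 symbol. Of the 50 genes, 42 carry the name of a structural protein, 29 of the large and 13 of the small subunit. The other 8 have names derived from one: Rpl3l, Rpl7l1, Rpl26l1, Rpl39l1, Rps27l and Rps4y2, and the transcribed pseudogenes Rpl37-ps2 and Rps4x-ps1. A further 36 probe sets carried a ribosomal symbol together with other symbols and are not members. Among the genes without a member probe set were Rplp1, Rplp2, Rps19, Rps27a and Rps4x.

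The animals were male Wistar rats bought at 7 weeks of age and kept on the CE-2 diet for 1 week. The normal group (4 arrays) then stayed on that diet for 8 weeks, and the high-fat group (4 arrays) received the Quick fat diet for the same time, with 10 animals fed per group. All were fasted overnight before blood was taken on day 56, and total RNA of the whole blood was hybridised to Affymetrix 3′ arrays. The labels name them biological replicates, so each array is taken as 1 animal. No pair of arrays held identical values, which cannot show that they came from different animals. Fewer cells of a type and less RNA per cell cannot be told apart in such samples.

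A ribosome is built from a large and a small subunit, each a scaffold of ribosomal RNA bound by a set of proteins needed mostly in equal number. Their messenger RNAs are among the most abundant in most cells, and in vertebrates many begin with a cytosine followed by a run of pyrimidines, the 5′ terminal oligopyrimidine (TOP) tract, through which their translation is held back when mTOR signalling is low. In blood, red cell precursors still hold ribosomes that make globin and lose them as they mature, and inherited loss of 1 copy of several of these genes causes Diamond-Blackfan anemia, a failure of red cell production.

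The RefSeq promoter table (build GRCr8) held an annotated start for 43 of the 50 genes, 37 structural and 6 like-named. A TOP start, taken as a C at the annotated first base followed by at least 4 bases that were each C or T, was present in 12 of the 37 structural genes (32.4%), in 0 of the 6 like-named genes, and in 881 of all 33469 starts in the table (2.63%). The windows below run from 10 bases before the annotated start to the end of the first 20 transcribed bases, and are shown because the tract is the sequence feature these genes are known for; capitals mark the TOP tract.
Rpl19 (chr10:83519054-83519083, + strand): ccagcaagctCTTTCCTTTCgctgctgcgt
Rpl35a (chr11:81235002-81235031, - strand): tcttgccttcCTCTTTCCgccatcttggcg
Rpl37a (chr9:81748081-81748110, + strand): cccgttgcgtCTCTTCCTCTTCgggcttgg
Rplp0 (chr12:46718371-46718400, - strand): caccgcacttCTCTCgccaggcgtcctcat
Rps15 (chr7:10068096-10068125, - strand): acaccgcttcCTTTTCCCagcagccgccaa
Rpl39 (chrX:121195877-121195906, - strand): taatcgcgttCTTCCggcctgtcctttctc
Rpl27a (chr1:172974563-172974592, + strand): cttggtgggctcctccctctttcttttctg
Rps6 (chr5:106420521-106420550, - strand): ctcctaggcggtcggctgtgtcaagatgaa
Rpl3l (chr10:14258436-14258465, + strand): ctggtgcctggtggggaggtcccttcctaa
Rpl39l1 (chr10:5966602-5966631, - strand): caggccgtcccgctatcctggtgtgtggtc
The first 6 have a TOP tract at the annotated start and the last 4, Rps6 among them, have none at that position. In Rpl27a the annotated first base is a T within a long pyrimidine run, so a start placed at a neighbouring C would have counted as TOP; the count depends on where the annotation puts the first base. The other 6 genes with a TOP start were Rpl14, Rpl22, Rpl28, Rpl34, Rpl35 and Rps3a.

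In the 300 bases around the start, 250 before and 50 after, 4 short motifs were searched on both strands. The pyrimidine motif CTTTCC, which overlaps some of the TOP tracts, was found in 17 of 37 structural genes (45.9%) and in 26.4% of all windows of that length. The ETS-type motif CCGGAAG was found in 8 of 37 (21.6%, against 8.75% of all), and AAGATGGC, the core of the YY1 motif, in 4 of 37 (10.8%, against 3.17%). TATAAA was found in 4 of 37 (10.8%, against 14.2%). A match describes the letters in the window and no binding was measured.

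The deposited values are log2 intensities that differ very little between arrays, and how they were made is not given in the sources used. They ran from 5.19 to 15.25 with a median of 6.60 in each array, while the SD of a member probe set over the 8 arrays had a median of 9.34 millionths of a log2 unit (1e-06), from 0.0692 to 195, against a median of 6.07 millionths for all probe sets. Array medians also differed by up to 217 millionths, normal 3 being the lowest and high-fat 4 the highest. Differences are therefore not fold changes of RNA, and are given as deviations from a gene's 8-array mean in millionths, or as the difference between group means divided by its pooled SD inside the groups (within-group SDs, high-fat minus normal). A scaled level is a gene's deviation divided by its SD over the 8 arrays. Levels of different probe sets follow the brightness of their probes as well as RNA amount.

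Most structural genes were near the top of the deposited scale. Of the 42, 38 had a mean level above the 99th percentile of all probe sets; the median was 12.36 and the highest was Rps29, a small subunit protein that binds zinc, at 14.55. The exceptions were Rpl39 at 9.70, Rpl30 at 6.60, Rpl28 at 6.22 and Rps13 at 6.22. For Rpl28, Rpl30 and Rps13, brighter probe sets with several symbols exist among the 36 not counted as members; why the member probe sets are dim was not tested. The 8 like-named genes lay between 5.52 (Rps4x-ps1) and 9.06 (Rpl37-ps2). All 42 structural families have further like-named genes or pseudogenes in the annotation, a median of 13 per family and up to 26 for Rpl7, Rpl23a and Rpsa, and signal from such copies cannot be told apart from the gene's own.

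No ribosomal protein gene passed the test between the diets. With limma and Benjamini-Hochberg adjustment over all probe sets, 0 of the 57 member probe sets passed an adjusted p of 0.05, against 0 of 31042 overall (0%), and the smallest adjusted p of a member was 1.00. At an unadjusted p under 0.05, 0 of 57 passed against 699 of 31042 (2.25%). In 0 of 57 probe sets did the 4 high-fat values lie entirely on one side of the 4 normal values, against 448 of 31042 (1.44%; 0.586% with high-fat higher and 0.857% with high-fat lower).

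By the sign of the difference alone, 37 of 50 genes were lower on the high-fat diet and 13 were higher, with a median difference of -0.218 within-group SDs. Over all 14217 genes, 7471 were lower, 6740 higher and 6 equal, with a median of -0.0374. Among the structural genes 33 of 42 were lower (median -0.236), 25 of 29 in the large subunit (median -0.263) and 8 of 13 in the small subunit (median -0.169), and of the like-named genes 4 of 8 were lower (median 0.0691). This balance rests on single animals. Without normal 4, 18 of 50 were lower and the median was 0.156; without normal 2, 25 were lower and the median was -0.0146; without normal 3, 41 were lower and the median was -0.773; without high-fat 3, 27 were lower and the median was -0.111; and without high-fat 4 the median was -0.433. With each array centred on its median, all 50 were lower, 39 of them with no overlap between the groups. Of all 31042 probe sets, 15544 (50.1%) were also lower with no overlap (limma adjusted p under 0.05 in 0%). The high-fat array medians (76.0 to 217 millionths above the lowest) all exceeded the normal ones (0 to 71.1). Centring thus lowers every high-fat array more than any normal array. For a gene with a small spread, the centred outcome therefore follows from the array medians. After quantile normalization of the deposited values, 44 of the 50 had equal group means, 4 were higher and 2 lower, and in 1 (Rps13) the groups did not overlap, against 0.197% of all probe sets.

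**Figure D1:**
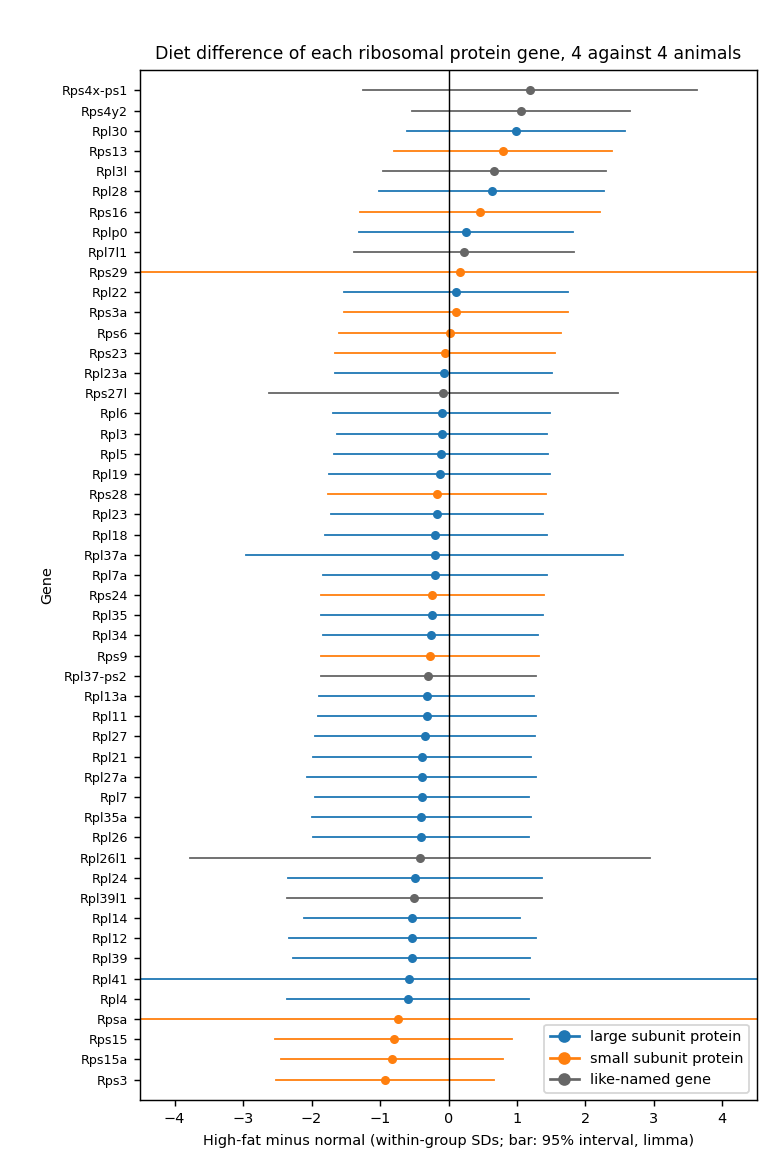
Difference between the diets for each of the 50 genes, high-fat minus normal, on the horizontal axis in within-group SDs, with 4 animals per group. Points are the differences, ordered by size and coloured by subunit or as like-named genes; bars are 95% confidence intervals from limma. Every interval crosses 0, from Rps4x-ps1 at 1.19 to Rps3 at -0.93, and the bars of Rps29, Rpl41 and Rpsa run past both ends of the axis.

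The proteins of the small subunit that had the smallest p among lower genes were Rps3, Rps15 and Rps15a. Rps3, which lines the entry of the messenger RNA channel, deviated from its mean by 0.734, 71.9, -60.3 and 89.1 millionths in normal 1 to 4 and by -43.9, -9.09, -63.9 and 15.5 in high-fat 1 to 4. Normal 2 and normal 4 lay above all high-fat animals, but normal 3 lay close to the lowest of them, so the groups overlapped. The difference was -50.7 ± 36.4 millionths (SE), or -0.93 within-group SDs, with an unadjusted p of 0.207 and an adjusted p of 1.00 by limma.

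Rps15a deviated by 1.18, 3.34, -5.88 and 9.43 millionths in the normal animals and by -3.72, -3.43, -2.89 and 1.94 in the high-fat animals. Its lowest and its highest values were both in the normal group, and high-fat 4 stood apart from the other high-fat animals. The difference was -0.83 within-group SDs (limma, unadjusted p 0.263, adjusted p 1.00). Rps15, which sits in the head of the subunit near the decoding site, had values of -0.818, 2.84, -2.34 and 4.43 in the normal and -1.12, -1.83, -2.69 and 1.51 in high-fat animals, differing by -0.80 within-group SDs. Again normal 4 and normal 2 were the highest and normal 3 was among the lowest.

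Rps6, the substrate of the S6 kinases, deviated by -0.334, 8.37, -20.3 and 11.7 millionths in the normal group and by 4.25, -1.38, -9.41 and 7.14 in the high-fat group. The normal group held both the highest and the lowest animal and the means were close, at 0.292 ± 7.63 millionths (SE), or 0.026 within-group SDs (centred: -1.37). Rps29 had the highest level of the members and one of the smallest spreads: its 8 values lay between -0.119 and 0.0712 millionths of its mean. The table gives 8 decimals at this level, so 1 step of the file is 0.01 millionths. Rps13, through its dim probe set, was 0.80 within-group SDs higher in the high-fat group (centred: -1.12), and normal 3 was the lowest animal by far at -24.3 millionths.

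In the large subunit, the lower genes with the smallest p were Rpl4 and Rpl14. Rpl4, whose protein reaches into the exit tunnel of the nascent chain, deviated by -0.680, 2.42, -2.58 and 3.60 millionths in the normal and by 1.61, -1.66, -2.27 and -0.440 in high-fat animals, differing by -0.59 within-group SDs. Rpl14 deviated by 2.25, 70.5, -100 and 99.1 in the normal and by -5.51, -11.2, -66.8 and 12.1 in high-fat animals, differing by -0.53. In both genes normal 4 was highest and normal 3 lowest, and all high-fat values lay between them.

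Rpl5 and Rpl11 bind the 5S ribosomal RNA and, outside the ribosome, the p53 regulator Mdm2. Rpl5 deviated by 10.3, 36.2, -73.0 and 35.8 millionths in the normal animals and by 13, 7.96, -44.7 and 14.4 in the high-fat animals, a difference of -0.11 within-group SDs. Rpl11 deviated by -2.69, 5.08, -12.0 and 15.5 in the normal and by 2.19, -5.51, -6.95 and 4.42 in high-fat animals, differing by -0.32. In each, normal 3 was the lowest animal and high-fat 3 the lowest of its group.

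Of the ribosomal stalk, which recruits the elongation factors, Rplp0 and Rpl12 had a member probe set. Rplp0 deviated by 2.52, -3.54, -13.2 and 7.75 millionths in the normal and by 0.639, -10.4, -6.43 and 22.6 in the high-fat group. Its highest animal was high-fat 4, and its difference of 0.26 within-group SDs turned to -1.44 when arrays were centred on their medians. Rpl12 deviated by between -2.91 and 2.93 in the normal and between -2.20 and 1.05 in high-fat animals, differing by -0.53.

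Rpl3, a protein near the peptidyl transferase centre, differed by -0.10 within-group SDs, and Rpl7 and Rpl26 by -0.39 and -0.40. Rpl39, a very small protein of the tunnel, differed by -0.54 with values from -3.46 (high-fat 2) to 3.71 millionths (normal 2). Rpl41, the shortest protein of the ribosome, varied by no more than 0.24 millionths within either group and differed by -0.58. The dim probe set of Rpl30, a protein that binds its own pre-mRNA, was 0.99 within-group SDs higher in the high-fat group. It was lowest in normal 1 (-21.0 millionths) and highest in high-fat 4 (28.1), and its difference was -1.05 when arrays were centred.

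Of the 8 like-named genes, 5 were lowest in normal 4 and 5 were highest in high-fat 2. Rps4y2, a relative of Rps4x, had the smallest p among genes higher in the high-fat group: it deviated by -27.0, -2.77, 20.5 and -48.0 millionths in the normal and by 18.5, -12.3, 45.5 and 5.55 in the high-fat animals. The groups overlapped, and the difference of 28.6 ± 18.1 millionths (SE), or 1.06 within-group SDs, had an unadjusted p of 0.158 and an adjusted p of 1.00 by limma; it was -0.53 within-group SDs with centred arrays. Rps4x-ps1, a pseudogene and the dimmest member, differed by 1.19 (centred: -1.18), with high-fat 2 and high-fat 3 at 1.94 and 1.46 millionths and all other animals between -1.03 and -0.133.

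Rpl3l, the relative of Rpl3 known from skeletal and heart muscle, had a level of 6.20, below the array median, and differed by 0.67 within-group SDs (centred: -1.12). Beside their relatives, Rpl26l1 differed by -0.41 and Rpl26 by -0.40, Rpl7l1 by 0.22 (centred: -1.36) and Rpl7 by -0.39, and Rpl39l1 by -0.50 and Rpl39 by -0.54. The difference between relatives was not tested. Rps27l, a relative of Rps27 that p53 induces, differed by -0.079 and was lowest in normal 4 at -1.83 millionths.

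**Figure D2:**
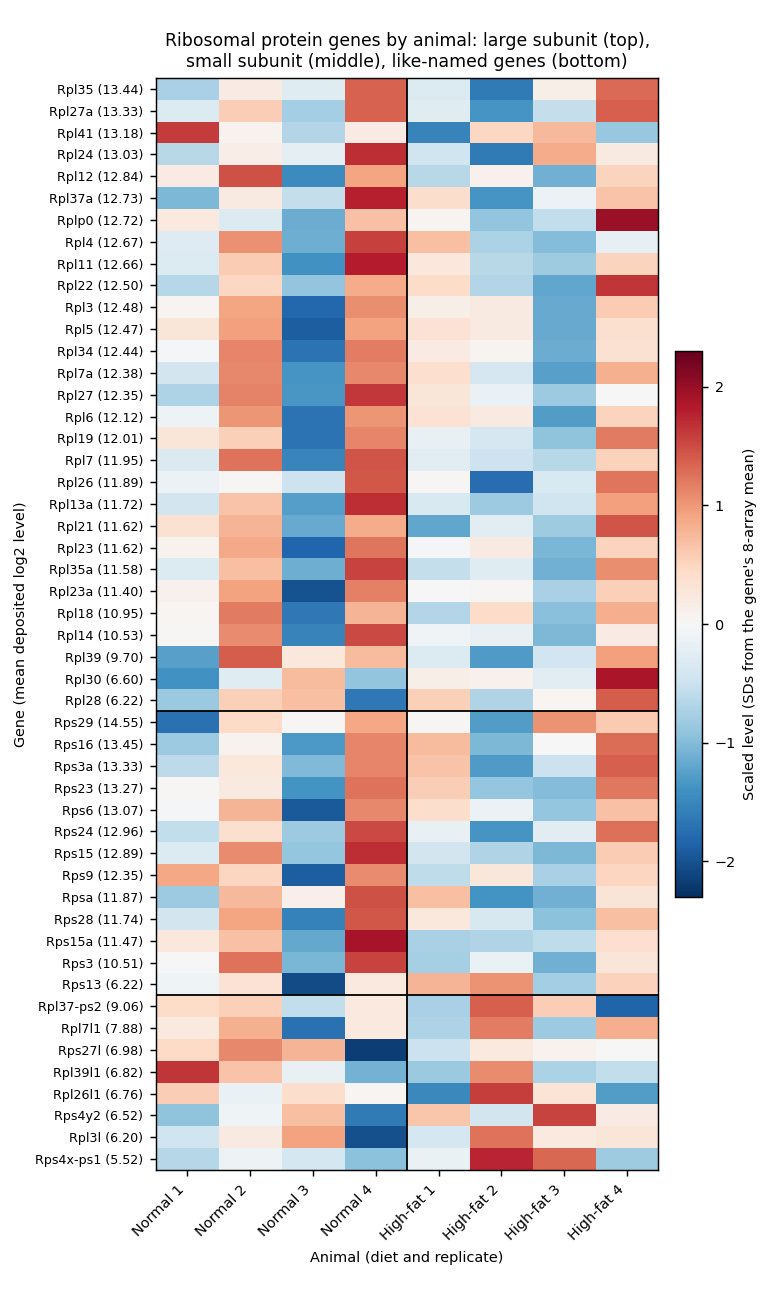
Scaled level of each of the 50 genes (vertical axis, with the mean deposited log2 level in brackets) in each of the 8 animals (horizontal axis), in SDs from the gene's 8-array mean, red above and blue below. Genes are ordered by level within large subunit, small subunit and like-named genes. Normal 4 is above the mean in 40 of the 42 structural genes and normal 3 below it in 37, whereas normal 4 is below the mean in 5 of the 8 like-named genes.

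Most structural genes were above their mean in normal 4 (40 of 42) and below it in normal 3 (37 of 42). Their mean scaled level was -0.26, 0.67, -1.09 and 1.11 in normal 1 to 4 and -0.03, -0.51, -0.64 and 0.77 in high-fat 1 to 4. The normal group thus held both the lowest and the highest animal. Both subunits had this order at its ends: normal 3 was at -1.06 in the large and -1.15 in the small subunit, and normal 4 at 1.04 and 1.26. The spread was more often larger in the normal group, with 29 of 42 structural genes (69.0%) having the larger SD there, against 54.9% of all genes. The median ratio of the SD in normal to that in high-fat animals was 1.38, against 1.07. Among lists described below, the share was 67.7% in translation factors (ratio 1.46) and 76.9% in T cell markers (ratio 2.55). It was 56.2% in other genes with a level above 9, and 0% in erythroid, NK cell and monocyte markers.

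Normal 3 was the lowest of the 8 animals in 25 of 42 structural genes (59.5%), and normal 4 the highest in 25 of 42 (59.5%). Over all genes the shares were 24.6% and 10.0%. Because most structural genes are bright, they were also set beside the 580 other genes with a level above 9, a limit chosen after the values were seen: normal 3 was lowest in 56.0% of these and normal 4 highest in 10.7%. The median level of the 580 was 9.75, against 12.36 for the structural genes, so brightness was not matched. Normal 3 was also the array with the lowest median over all probe sets. The difference in these shares was not tested. High-fat 2 was the lowest animal in 21.4% of structural genes, in 2.07% of the other bright genes and in 9.63% of all genes. In 17 of the 42 (40.5%) normal 3 was lowest and normal 4 highest, against 43 of 580 (7.41%). The same held for 7 of 13 T cell markers (53.8%) and 7 of 31 translation factors (22.6%), lists described below. Normal 3 was lowest in 61.5% of the T cell markers and normal 4 highest in 53.8%. With arrays centred on their medians, 0 of 50 members were lowest in normal 3 and 9 highest in normal 4. Centring takes least from normal 3 and most from high-fat 4, so these counts depend on the array medians. They are no check on which animal was lowest.

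**Figure D3:**
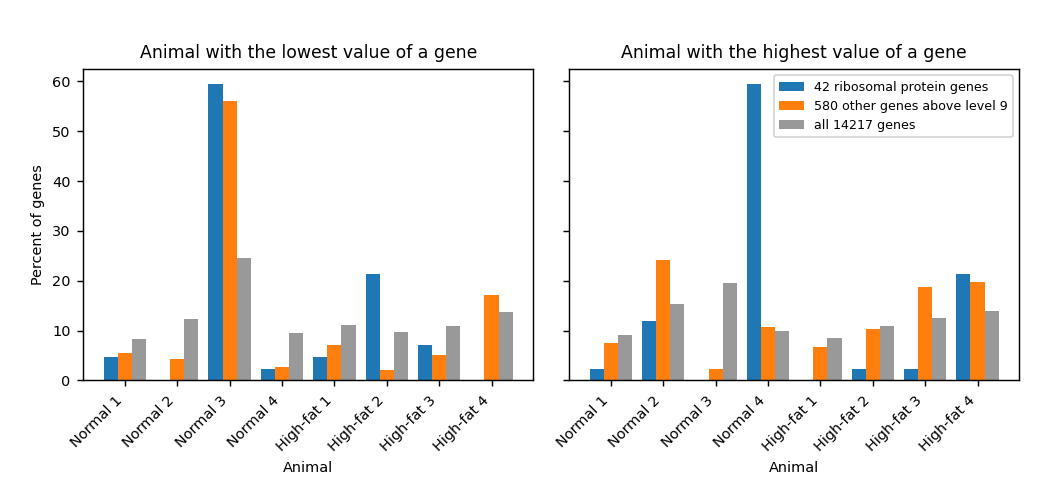
Percent of genes (vertical axis) whose lowest value (left) or highest value (right) over the 8 arrays was in each animal (horizontal axis), for 42 structural ribosomal protein genes, 580 other genes above level 9 and all 14217 genes. Structural genes reach 59.5% for normal 3 on the left, near the 56.0% of other bright genes, and 59.5% for normal 4 on the right, where other bright genes are at 10.7%. The other bright genes are dimmer than the structural genes, with a median level of 9.75 against 12.36.

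The members were also split at level 9, the limit chosen after the values were seen. The dim genes were Rpl28, Rpl30, Rps13 and all like-named genes except Rpl37-ps2. Brightness and kind of gene therefore cannot be told apart in this split. Of the 40 genes above level 9, 34 were lower in the high-fat group (median -0.266), and normal 4 was highest in 25. Of the 10 at or below level 9, 3 were lower (median 0.647), normal 4 was lowest in 6 and highest in 0. The 580 other bright genes had 242 lower, 336 higher and 2 equal group means (median 0.103). The 36 probe sets with several symbols, which were not used to choose the members, had 33 lower and 3 higher (median -0.426); normal 3 was lowest in 22 (61.1%) and normal 4 highest in 23 (63.9%). These may share probes or transcripts with members and are no independent set of genes.

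Probe sets of the same gene did not always run together. The bright probe set of Rpl14 (level 10.53) was highest in normal 4, at 99.1 millionths, while its second (6.65) was lowest there, at -13.5. For Rpl7, the bright set (11.95) was highest in normal 4, at 42.7, and the second (7.11) lowest there, at -27.0. The second set of Rps24 (7.64) was lowest in normal 3 at -416 and highest in high-fat 2 at 198, where the bright set (12.96) was lowest at -11.6. The 2 probe sets of Rpl7l1 were both lowest in normal 3 and highest in high-fat 2.

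Rpsa, the small subunit protein also known as the laminin receptor precursor, had 3 probe sets, at levels 11.87, 10.62 and 10.15. The dimmest of them, of a type that the maker marks as open to cross-hybridisation, had the smallest p of all member probe sets. It deviated by -0.344, 1.24, 2.0 and 6.06 millionths in the normal animals and by -3.49, -3.26, -4.27 and 2.09 in the high-fat animals. Of the high-fat animals, 3 lay below all normal ones and high-fat 4 above 3 of them. The difference was -4.47 ± 2.03 millionths (SE), or -1.58 within-group SDs, with an unadjusted p of 0.0644 and an adjusted p of 1.00 by limma. The other sets differed by -0.74 and -0.58, and normal 4 was the highest animal in all 3.

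**Figure D4:**
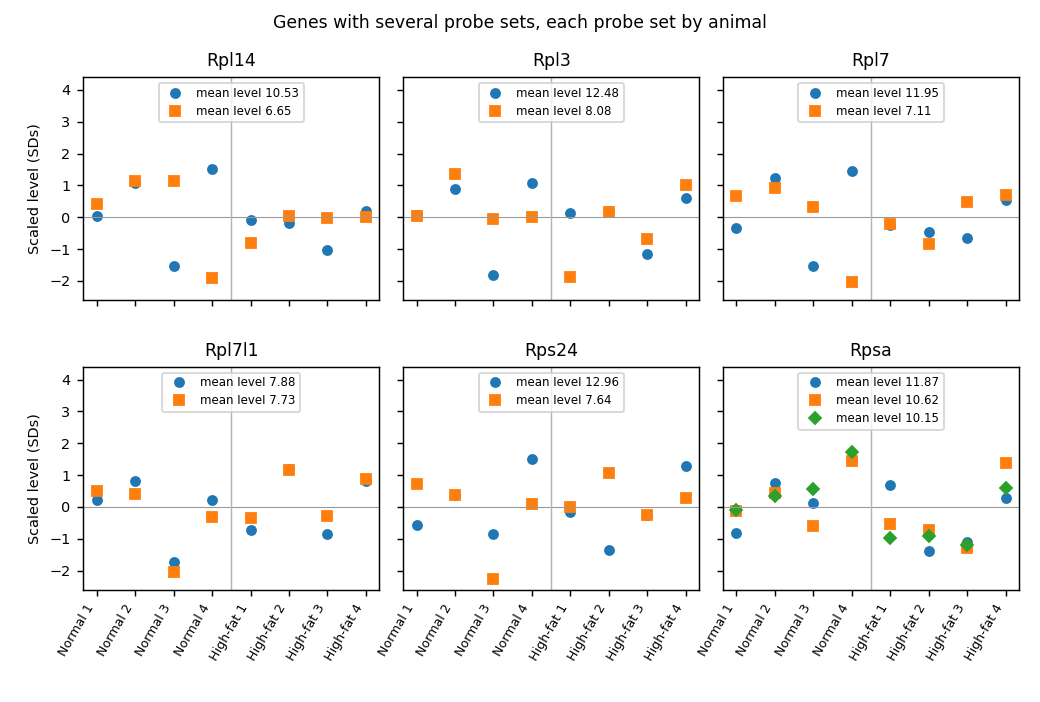
Scaled level (vertical axis, SDs from the probe set's 8-array mean) in each animal (horizontal axis) for the 6 genes with several probe sets, 1 panel per gene and 1 symbol per probe set, named by mean log2 level. In normal 4 the probe sets of Rpl14 and of Rpl7 lie on opposite sides of 0, while the 3 of Rpsa all lie at their highest.

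The TOP start was set beside these values. Of the 12 members with one, 8 were lower in the high-fat group (median -0.218) and normal 4 was highest in 6; of the 31 with an annotated start and no TOP tract, 25 were lower (median -0.235) and normal 4 was highest in 16. The 12 are all structural, whereas the 31 include the 6 like-named genes with a start. The 31 also hold genes such as Rpl27a and Rps23, whose annotated first base is a T within a pyrimidine run. The 2 groups thus differ in more than the tract. The 338 other measured genes with a TOP start had 184 lower and 154 higher (median -0.0463), and normal 4 was highest in 10.7% of them. Within the structural set, 10 of 18 listed Diamond-Blackfan anemia genes were measured, among them Rpl5, Rpl11, Rpl35a and Rps24; 9 were lower and 1 higher (median -0.236).

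The genes that build, use and regulate ribosomes were listed for comparison, and none passed an adjusted p of 0.05 by limma. Of the 31 measured translation initiation and elongation factors (of 41), 16 were higher and 15 lower (median 0.00176). Their mean scaled level was 0.10, 0.71, -1.54 and 0.66 in normal 1 to 4. In high-fat 1 to 4 it was -0.30, 0.27, -0.72 and 0.83. The sign was that of the structural genes in all animals but normal 1 and high-fat 2. Normal 3 was lowest in 74.2% of these factors and normal 4 highest in 29.0%. The factors with the smallest p were the initiation factor subunit Eif3k at 0.69 and the cap-binding protein Eif4e at 0.65. Of 46 measured ribosome assembly factors (of 47), 35 were lower and 11 higher (median -0.163). Lsg1, a GTPase of late large subunit maturation, differed by -1.79 (limma, unadjusted p 0.0439, adjusted p 1.00), and the small subunit factor Nop14 by -1.08. Of 28 measured regulators of ribosomal protein synthesis (of 30), 19 were higher and 9 lower (median 0.189), with the heme-regulated kinase Eif2ak1 at 1.51 and the amino acid sensing kinase Eif2ak4 at -1.38. Of the 73 mitochondrial ribosomal protein genes, 43 were lower and 30 higher (median -0.110), and normal 4 was highest in 19.2%.

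Whole blood mixes cell types, so their marker lists were followed beside the ribosomal genes. Of the marker lists, the T cell list (13 of 14 measured, Cd3e at level 9.87) was, like the structural genes, lowest in normal 3 (scaled level -1.14) and highest in normal 4 (0.94), with 11 of 13 lower in the high-fat group. It had the opposite sign in normal 1 (0.49 against -0.26), high-fat 2 (0.38 against -0.51) and high-fat 4 (-0.44 against 0.77). Its summed level, as a list mean, ranged from -83.4 to 70.9 millionths in the normal and from -26.0 to 14.9 in the high-fat group. The B cell list (8 of 11, Cd79b at 8.20) was highest in normal 2 (1.12) and lowest in high-fat 3 (-1.11). It was at -0.80 in normal 3, 0.86 in normal 4 and 0.81 in high-fat 2, with 7 of 8 lower, and ranged from -242 to 295 in the normal and from -297 to 243 in the high-fat group.

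The erythroid list (9 of 12, Hbb at 15.09) was between -0.57 and -0.33 in the normal animals and reached 0.95 in high-fat 3, where the structural genes were at -0.64; 7 were higher, 1 lower and 1 equal, with list means from -1066 to -197 and from -188 to 1595 millionths. The NK cell (10 of 10) and monocyte (9 of 9) lists stood at 2.09 and 2.14 in high-fat 4. In that animal 39 of 42 structural genes were above their mean. In high-fat 1 to 3 the NK cell list was at -0.07, -0.19 and -0.38 and the monocyte list at -0.18, -0.49 and -0.42. By group means 10 of 10 and 8 of 9 genes of these 2 lists were higher in the high-fat group, with high-fat 4 the highest animal in 9 of 10 and 9 of 9. Their list means ranged from -1977 to 870 and from -1999 to 1207 in the normal, and from -1007 to 6225 and from -2391 to 5540 in the high-fat group. The platelet list (8 of 10) was lowest in high-fat 4 at -1.59, ranging from -21.0 to 51.8 and from -176 to 65.1, with 6 of 8 lower. The neutrophil list (8 of 12, 6 higher) ranged from -281 to 316 and from -229 to 102, and the eosinophil, basophil and mast cell list (6 of 8, 5 higher) from -8.34 to 2.28 and from -1.09 to 7.54. The scale has no 0, so no marker is listed at 0, and blood's defining markers Hbb, S100a9 (11.59) and Pf4 (12.82) were bright. The part of cell makeup in the ribosomal values was not tested.

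**Figure D5:**
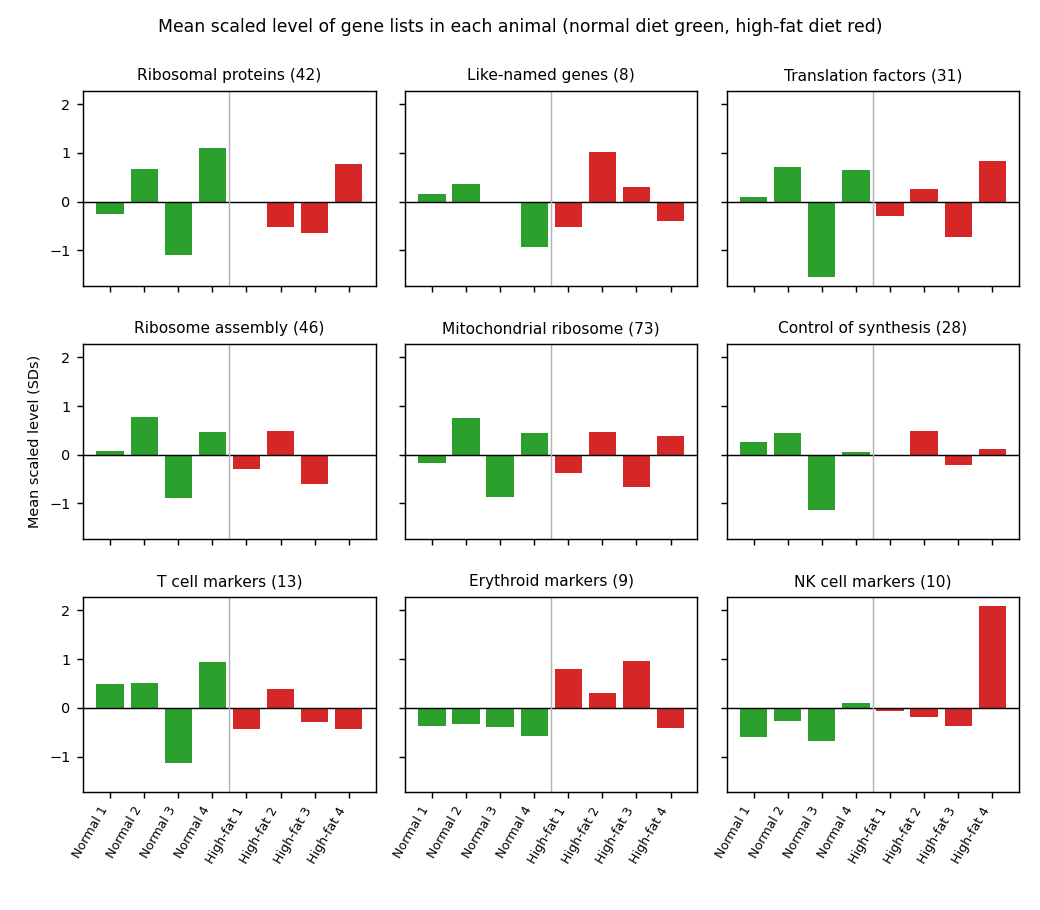
Mean scaled level (vertical axis, SDs) of 9 gene lists in each of the 8 animals (horizontal axis), normal diet in green and high-fat diet in red, with the number of genes in brackets. The structural ribosomal genes are lowest in normal 3 (-1.09) and highest in normal 4 (1.11); T cell markers share these ends, and like-named genes are lowest in normal 4 (-0.92).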

How the data were processed

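RNA of 8 whole blood samples was measured on Affymetrix 3′ arrays, and the table used is the one the authors deposited, whose values read as log2 intensities. Background correction, normalization and probe summary by the authors are not given in the sources used here. Of 31099 probe sets, 57 controls were left out. Names came from the platform annotation: 20826 probe sets had 1 symbol, 436 several and 9780 none. Of the 57 member probe sets, 55 matched the GRCr8 annotation by gene number and 0 symbols had changed.

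The diets were compared in limma 3.58.1 (R 4.3.3; lmFit, eBayes, two-sided, no covariates) on every probe set, with Benjamini-Hochberg adjustment over 31042. limma shares a variance between probe sets, which sets a floor under the SE of those with very small spread (Rps29, Rpl41, Rpsa). The script was tested on simulated data. Summaries use the brightest probe set of a gene by its 8-array mean, and means within 1e-12 were counted as equal. Named genes were the 5 with the smallest p in each direction, a list covering the stalk, the 5S RNA binders and other well-known members, like-named pairs, genes with several probe sets, and the 2 smallest p of the factor lists. The members and lists were chosen with earlier results of these data known. Alternatives were centring, quantile normalization, a filter on dim probe sets, trended robust variances, a block for replicate number, leave-one-out fits, and the mean over probe sets. The number of arrays limits the precision.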

Additional observations from a re-analysis of the deposited data

Results flagged for a closer look

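Of 50 genes checked in each group of 4, 3 had a high-fat animal whose gap to its nearest neighbour exceeded Dixon's limit for 4 samples as a share of the group's range. Chance gives about 1 in 20 groups. Each of the 50 genes was checked in both diet groups, so 3 flags are fewer than that share. Rpl5 was low in high-fat 3, at -44.7 millionths against 7.96 to 14.4 in the other high-fat animals (gap over range 0.891). Rps15a was high in high-fat 4, at 1.94 against -3.72 to -2.89 (0.853). Rpl39l1 was high in high-fat 2, at 1.90 against -1.50 to -0.980 (0.848).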

How the results depend on the processing

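No member was called by limma in the fits with centring, the filter, trend and robust variances, the replicate block or any animal left out; calls over all members were not counted with the mean of probe sets. Centring each array on its median gave 0 higher and 50 lower members, a median of -1.34 within-group SDs (large subunit -1.38, small subunit -1.28) and 39 members lower without overlap, against 50.1% of all probe sets; the array medians of the groups differed by 66.0 millionths, more than most members vary. Under it the differences of Rps4y2 (-0.534), Rpl30 (-1.05), Rps13 (-1.12), Rps4x-ps1 (-1.18), Rpl3l (-1.12), Rplp0 (-1.44), Rps6 (-1.37) and Rpl7l1 (-1.36) changed sign.

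Quantile normalization gave 32 calls over all probe sets, 30 of which had no spread within groups, and 1 member call (Rps13, limma adjusted p 1.27e-12, only 2 distinct values), with 4 members higher, 2 lower and 1 without overlap; at an unadjusted p under 0.05 the values as deposited gave 699 calls. The filter on dim probe sets left 8 higher of 45. Chosen after seeing the data, adding the probe sets with several symbols gave 70 lower of 86. Also chosen then, under centring 0 of 50 members were lowest in normal 3, against 26 of 50. Under it 9 were highest in normal 4, against 25. Centring takes least from normal 3, so these counts depend on the array medians. Quantile normalization left spread in only 9 members, of which 0 were lowest in normal 3 and 0 highest in normal 4.

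Leaving out 1 animal at a time, members higher ranged from 9 to 32, members lower from 18 to 41, the median from -0.773 (without normal 3) to 0.156 (without normal 4), the large subunit from -0.907 to 0.126, the small subunit from -0.545 to 0.315, and members without overlap from 0 to 1. Among named genes, signs changed for Rplp0 (-0.484 to 0.610), Rpl5 (-1.25 to 0.236), Rpl11 (-1.03 to 0.251), Rps6 (-0.936 to 0.390), Rpl3 (-1.07 to 0.25), Rpl26 (-1.03 to 0.109) and Rpl7l1 (-0.361 to 0.516). The cause of these changes was not tested.

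With the replicate number as a block, 13 members were higher and 37 lower, the median was -0.339 and 0 were called; same-numbered arrays correlated at -0.125, 0.205, 0.368 and 0.144 in their deviations, and arrays 2, 3 and 4 correlated best with their own number while array 1 did not. Pairing was not assumed, since 1 correlation was below 0.1 and the labels give no shared source. The block changed no call. The planned floor or pseudocount was not run, since the values are on a log scale.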
